A study of Mus musculus with 15 samples.

Results

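Exc_4 is 1 of 26 clusters of excitatory neurons in the mouse prefrontal cortex (PFC). Its members are the cells that carried the cluster name Exc_4 in the deposited table of cells, in every P60 and P21 library. They numbered 1141 of 35360 retained cells, against 19236 cells in the 25 other excitatory clusters. At P60 there were 941 Exc_4 cells among 14443 excitatory cells (6.52%, the third-largest cluster), and at P21 there were 200 among 5934 (3.37%, rank 13).

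Single cells of dissociated PFC were captured in droplets (10x Genomics Chromium), and each transcript molecule was counted by its unique molecular identifier (UMI). Of the 15 libraries, 12 were from adult male C57BL/6N mice of 8 to 10 weeks (called P60) and 3 were from male C57BL/6N mice of 3 weeks (P21). The adults had intravenous self-administration of saline or of cocaine and were taken at the end of it (maintenance), after 48 h of withdrawal or after 15 days of withdrawal, with 2 libraries for each of the 6 groups. The P21 mice had no treatment. The adults had also had food training and catheter surgery, so age cannot be told apart from these procedures in any age comparison below. The methods give 2 mice pooled in each library, and 4 mice for the 3 P21 libraries, so whether the P21 libraries are 3 separate samples is not given and their spread may be partly technical. The labels give PFC in the titles and nucleus accumbens (NAc) in a tissue field. The methods describe dissection of the PFC. In Exc_4 the 6 striatal neuron markers summed to 46.5 to 114.9 CPM (a gene's UMIs in the Exc_4 cells of a library, scaled so that every library has the same total) at P60, and to 62.3 to 90.2 CPM at P21. In the other excitatory clusters they summed to 46.9 to 72.5 CPM at P60 and to 85.9 to 95.4 CPM at P21. Exc_4 was itself picked out as excitatory neurons, so these sums cannot tell the tissues apart.

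The excitatory neurons of the cortex release glutamate and fall into types that differ by layer and by the target of their axons. Upper-layer neurons project mostly within the cortex, to other cortical areas and to the opposite hemisphere. Cux2 encodes a homeodomain transcription factor of upper-layer neurons, and Calb1 encodes calbindin, a cytosolic calcium buffer. Between weaning and adulthood such neurons complete axon growth, prune and stabilise synapses and change their receptor subunits.

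The cells were grouped by the authors on P60 expression, and each P21 cell was then named by its correlation with the P60 clusters. The genes that set Exc_4 apart are therefore given as a description with no test. The P21 cells that joined it had to resemble adult Exc_4, which bears on every age comparison below. From 36 to 152 Exc_4 cells came from each P60 library (median 66.5), and 39, 74 and 87 from the P21 libraries. They held 282821 to 1367069 UMIs per library. The median UMI count of an Exc_4 cell was 7912.5 to 12167 over the P60 libraries and 5921 to 7338.5 over the P21 libraries, and in the other excitatory clusters it was 12339.5 to 16805 at P60. No pair of libraries shared more than 27 cell barcodes, and no pair shared more than 1 among Exc_4 cells.

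The deposited name Exc_4 carries no markers. Calb1 and Cux2 are those that the study gives for an Exc-4 of its coarser clustering, which need not be the same cells. The match to them was partial. Calb1 (chromosome 4, 15808411-15835211, plus strand, build NCBIM37) was at 196.7 to 594.4 CPM in Exc_4 over the 12 P60 libraries (median 309), with a mean of 327 ± 114 (SD, n = 12) that was the highest of the 26 clusters. Exc_5 (321), Exc_1 (316) and Exc_3 (293) followed. Their differences from Exc_4 were smaller than the SD between libraries, which the clusters share. Cux2 (chromosome 5, 122308396-122500111, minus strand) was at 62.4 to 118 CPM (median 81.4) with a mean of 83.5 ± 15.7, which ranked 9 of 26. Exc_6 (238 CPM), Exc_3 (224) and Exc_2 (152) were the highest for Cux2. Cux2 is therefore expressed in Exc_4 but does not distinguish it.

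**Figure D1:**
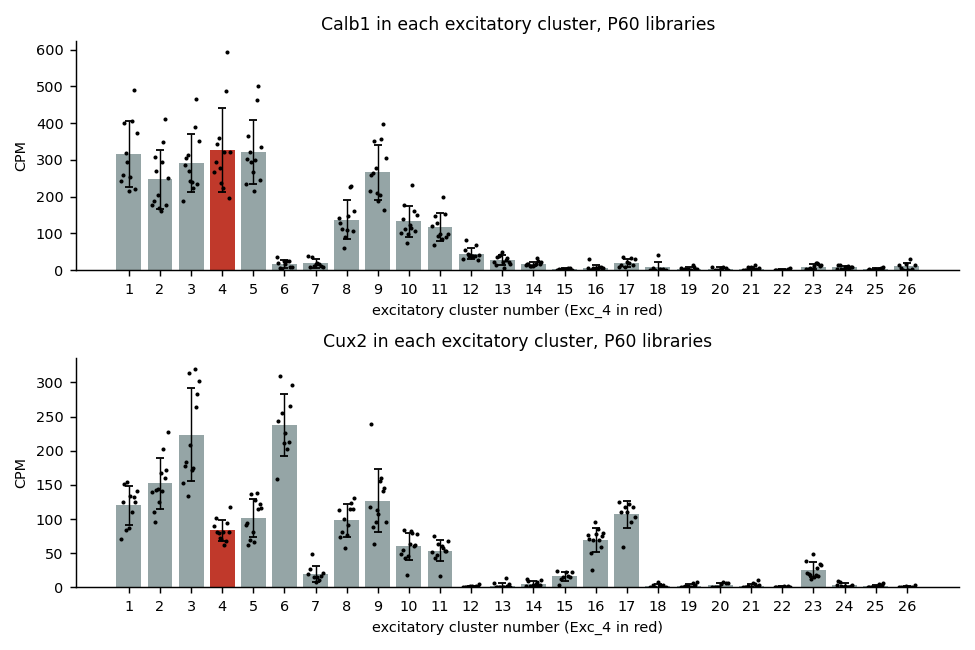
Levels of Calb1 (top) and Cux2 (bottom) in the 26 excitatory clusters at P60, in CPM on a linear axis. Each point is a library with at least 10 cells of the cluster, bars are means over libraries, error bars are SD and Exc_4 is in red. Calb1 in Exc_4 (327) is close to Exc_5, Exc_1 and Exc_3, while Cux2 in Exc_4 (83.5) lies below 8 other clusters.

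At least 1 Calb1 UMI was found in 85.4% of P60 Exc_4 cells and at least 1 Cux2 UMI in 47.8%. In endothelial cells, which should lack both, the shares were 1.82% and 1.63%, at a median of 4515.5 UMIs against 9991 in Exc_4. With each cell thinned to 2000 UMIs the shares in Exc_4 were 44.1% for Calb1 and 15.0% for Cux2, against 0.857% and 0.771% in endothelial cells. Both genes were found together in 42.7% of P60 Exc_4 cells, Calb1 alone in 42.7%, Cux2 alone in 5.1% and neither in 9.46%. Among 452 Exc_3 cells at P60 both were found in 71.9%. Among 200 Exc_4 cells at P21 both were found in 27.5%, Calb1 alone in 57.0%, Cux2 alone in 4.0% and neither in 11.5%, in shallower cells.

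Other upper-layer genes were also high in Exc_4, and deep-layer genes were low. The 15 upper-layer genes on the list summed to 3396 to 4212 CPM in the P60 Exc_4 libraries, against 2174 to 2845 in the other excitatory clusters as 1 group. Among them, Otof, which encodes the calcium-sensing release protein otoferlin, was highest in Exc_4, and the adhesion gene Pvrl3 (77.9 CPM, nectin 3) ranked 2. Rasgrf2, an exchange factor for Ras, reached 174 CPM and Enpp2, the enzyme autotaxin, reached 247 CPM, and both ranked 4. The 10 layer 5 genes summed to 58.3 to 128.5 CPM in Exc_4 against 309 to 524 in the other clusters. The 10 layer 6 genes summed to 66.2 to 117 CPM against 248 to 475, and Nxph4 was at 0 in all 12 P60 libraries. Fezf2, a master regulator of subcortically projecting neurons, was at 0.878 CPM, and Foxp2, a deep-layer transcription factor, was at 0.361 CPM.

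The genes with the largest ratio of Exc_4 to the mean of the other 25 clusters, among genes of at least 20 CPM, began with Aldh1a3, an enzyme that makes retinoic acid. Aldh1a3 (chromosome 7, 73535778-73572403, minus strand, NCBIM37) was at 8.05 to 49.5 CPM over the P60 libraries (mean 32.3 ± 10.8), a ratio of 17.6. Its next highest level was 22.2 CPM in Exc_3. Otof (chromosome 5, 30669351-30764305, minus strand) was at 33.0 to 70.1 CPM (mean 47.9 ± 11.3), a ratio of 10.7, with Exc_3 at 33.4 CPM. The others were Dio3, the deiodinase that inactivates thyroid hormone (20.7 CPM, ratio 10.0), the neurotrophin Ntf3 (41.7, ratio 7.55), the calpain gene Capn3 (59.8, ratio 7.12), whose exons overlap Ganc on the same strand, and Igfbp2 (26, ratio 6.95), which binds insulin-like growth factors and was slightly higher in Exc_5 (26.4). They went on with Arhgef26, the transcription factor Bhlhe22 (95.5 CPM, ratio 6.35), neuroglobin (Ngb, 90.3 CPM, ratio 6.2), Plk5, the glutamate transporter Slc1a3 and Evc2.

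Slc1a3 is best known from astrocytes. The 8 astrocyte markers summed to 345 to 736 CPM in Exc_4 at P60, against 584 to 883 in the other excitatory clusters and 35303 in the astrocytes themselves. The part of astrocyte RNA in the Slc1a3 level was not tested. Exc_4 was the top cluster for each of the 12 leading genes except Igfbp2, and its ratios to the single highest other cluster were far smaller. Only 6 of the 12 stayed among the leading 12 by that ratio, and 7 of the 12 stayed when P21 libraries alone were used. At P21 the ratio was 8.3 for Aldh1a3, 10.8 for Otof, 2.91 for Dio3 and 1.57 for Igfbp2.

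The genes with the lowest ratio of Exc_4 to the other clusters began with Tshz2 and Pcp4. Tshz2, a zinc finger gene, was at 0 to 3.89 CPM in the P60 Exc_4 libraries and at 2099 in Exc_21. Pcp4, a calmodulin regulator, was at 13.3 to 159 CPM against a mean of 2056 over the other clusters and 8645 in Exc_18, and its exons overlap Igsf5 on the same strand. Myl4, an atrial myosin light chain, was at 11 CPM in Exc_4 against 251 over the other clusters. Tmem91, the apoptosis gene Bok and the cell cycle inhibitor Cdkn1a completed the 6 lowest, at 3.61, 7.33 and 9.9 CPM. Over 9776 genes the clusters closest to Exc_4 were Exc_3 (Pearson r of log2(CPM + 1) across genes 0.99), Exc_5 (0.985) and Exc_9 (0.967), with Exc_21 (0.851) the farthest. Genes are not independent replicates, and all clusters share the same libraries.

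Some libraries and cells stand apart. By the authors' broad cell classes, 6 of the 200 P21 Exc_4 cells (3.0%) were not excitatory neurons, with 4 classed as microglia, 1 as an oligodendrocyte precursor and 1 as an astrocyte. None of the 941 P60 Exc_4 cells had another class. Among the other excitatory clusters, 270 of 5734 P21 cells (4.71%) and 10 of 13502 P60 cells had one. P21 replicate 1 differed from P21 replicates 2 and 3 more than any other replicates of a group did from each other. Its Exc_4 counts gave a chi-square per degree of freedom of 4.55 and 4.1 against them, whereas replicates 2 and 3 gave 1.46 and the P60 pairs gave 1.57 to 2.11.

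Exc_4 made up a larger share of excitatory cells in the saline P60 libraries than at P21, without passing the test. The share was 11.2% and 9.94% in the maintenance saline libraries, 8.61% and 6.95% at 48 h and 5.96% and 4.38% at 15 days. At P21 it was 1.57%, 4.78% and 4.57%. The saline mean was 7.84% ± 2.56 (SD, n = 6) and the P21 mean was 3.64% ± 1.79 (SD, n = 3). The difference of 4.2 percentage points gave p = 0.0595 (exact permutation test, two-sided, 84 regroupings, smallest possible p 0.0119), and without P21 replicate 1 it was 3.17 points with p = 0.179 (exact). Exc_4 cells of P21 were assigned by another procedure than those of P60, so the share also depends on that assignment, and its part was not tested.

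The share did not separate cocaine from saline. It was 13.0% and 7.78% in the cocaine libraries at maintenance, 16.0% and 4.92% at 48 h and 2.67% and 5.77% at 15 days. The cocaine mean was 8.36% ± 5.13 (n = 6), 0.52 points above saline, with p = 0.87 (exact permutation test within time points, two-sided, smallest possible p 0.00926). By time point the difference was -0.194, 2.7 and -0.946 points. The sign rested on single libraries, since the difference was -0.347 without cocaine maintenance replicate 1 and -1.33 without cocaine 48 h replicate 1. The 15-day libraries had 1393 to 2619 excitatory cells, more than the 321 to 1122 of the earlier ones, and both treatments had lower mean shares there. The cocaine libraries overlapped, with 15-day replicate 2 (5.77%) above 48 h replicate 2 (4.92%).

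**Figure D2:**
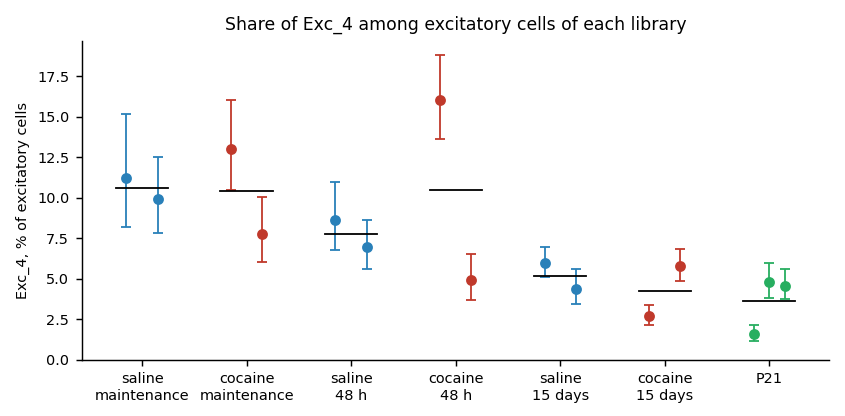
Share of Exc_4 among the excitatory cells of each library, in percent. Points are libraries, vertical bars are 95% Wilson intervals, which cover counting error only, and black lines are group means. The 2 libraries of the cocaine maintenance and 48 h groups lie far apart (13.0% and 7.78%, 16.0% and 4.92%), and P21 replicate 1 (1.57%) is the lowest of all.

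To ask which genes differ in Exc_4 between P21 and adulthood, the UMIs of its cells were summed per library and the 6 saline P60 libraries were compared with the 3 P21 libraries. Only the adults had undergone the self-administration procedure, so a difference may belong to age or to that procedure. The comparison used edgeR's quasi-likelihood test with Benjamini-Hochberg adjustment over the 7015 genes tested, and calls needed an adjusted p under 0.05 together with at least 1.5-fold difference. It called 535 genes (7.63%), of which 204 were higher at P60 (2.91%) and 331 lower (4.72%). The median mitochondrial share of Exc_4 cells was 2.18 to 3.82% in the saline P60 libraries and 3.53 to 4.72% at P21, and its part in these calls was not tested. The groups did not overlap in 160 of the 204 rises and 260 of the 331 falls, and in 963 of all genes tested. Without P21 replicate 1 there were 675 calls (327 higher, 348 lower), of which 449 were among the 535. With only the cells classed as excitatory there were 513 calls, 480 of them among the 535, a check chosen after the data were seen. Without P21 replicate 2 there were 276 calls and without replicate 3 there were 350. With P21 replicates 2 and 3 summed as 1 library, also chosen after the data were seen, there were 374, 349 of them among the 535. With just the 2 saline libraries of the 15-day group as adults there were 58.

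Of the 204 rises, the 10 named by size included Myh14 and S100a6. Myh14, a non-muscle myosin heavy chain, was at 3.96, 20.1 and 20.5 CPM in the P21 libraries and at 78.9 to 146 (median 105) in the saline P60 libraries. The log2 change was 2.64 ± 0.3 (SE, adjusted p = 6.39e-07). S100a6, a calcium-binding protein, was at 27.7, 20.1 and 12.3 CPM at P21 and at 66.2 to 119 (median 96.3) at P60, a log2 change of 2.34 ± 0.28 (adjusted p = 1.9e-06). Every P60 library stood above every P21 library for both genes.

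The largest fold was that of Rnf207, at 3.96, 4.02 and 2.05 CPM at P21 and 18.3 to 63.4 (median 38.4) at P60, 11.2-fold. Phf1, which binds methylated histone and recruits a Polycomb complex, rose 8.91-fold to 12.8 to 44.5 CPM, and its P21 libraries were at 3.96, 2.01 and 2.05. The matrix proteins Abi3bp (7.98-fold) and Mgp (4.42-fold) rose as well, and so did the vesicle protein gene Nrsn2 (4.38-fold), Tnnt2 (cardiac troponin T, 4.51-fold), the protease inhibitor gene Spink8 (4.69-fold) and Ilvbl (4.33-fold). The groups did not overlap for any of these 10, which the rule for naming them required. Without P21 replicate 1 all 10 kept their call.

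Some genes of immature neurons and axon growth fell. Of 21 tested genes on that list, 8 fell and none rose (4.72% and 2.91% of all genes tested), with a median log2 change of -0.51 over the 21 against 0.0054 over all genes. Cd24a, a surface glycoprotein of immature neurons, was at 67.3, 147 and 51.3 CPM at P21 and at 0 to 5.24 (median 2.54) at P60, a log2 change of -4.86 ± 0.4 (adjusted p = 1.22e-08). Marcksl1, a regulator of actin at the membrane, was at 237, 185 and 258 CPM at P21 and at 3.33 to 26.7 (median 13.5) at P60, 14.0-fold lower. All P21 libraries lay far above all adult ones for both.

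Nnat (neuronatin) was at 578, 651 and 572 CPM at P21 and at 49.4 to 163 (median 106) at P60, 5.74-fold lower. Dpysl2 (CRMP2, which binds tubulin in growing axons) was at 736, 785 and 753 CPM at P21 and at 239.7 to 479 (median 303) at P60, 2.22-fold lower. Gap43, the growth cone protein, was at 867, 1657 and 1536 CPM and fell 1.8-fold to 623 to 835, and P21 replicate 1 was nearest to the adults. Stmn2, Marcks and Tubb2a, which act on the cytoskeleton, fell 1.77-, 1.55- and 1.51-fold. Without P21 replicate 1, 10 of the 21 were called, all as falls.

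**Figure D3:**
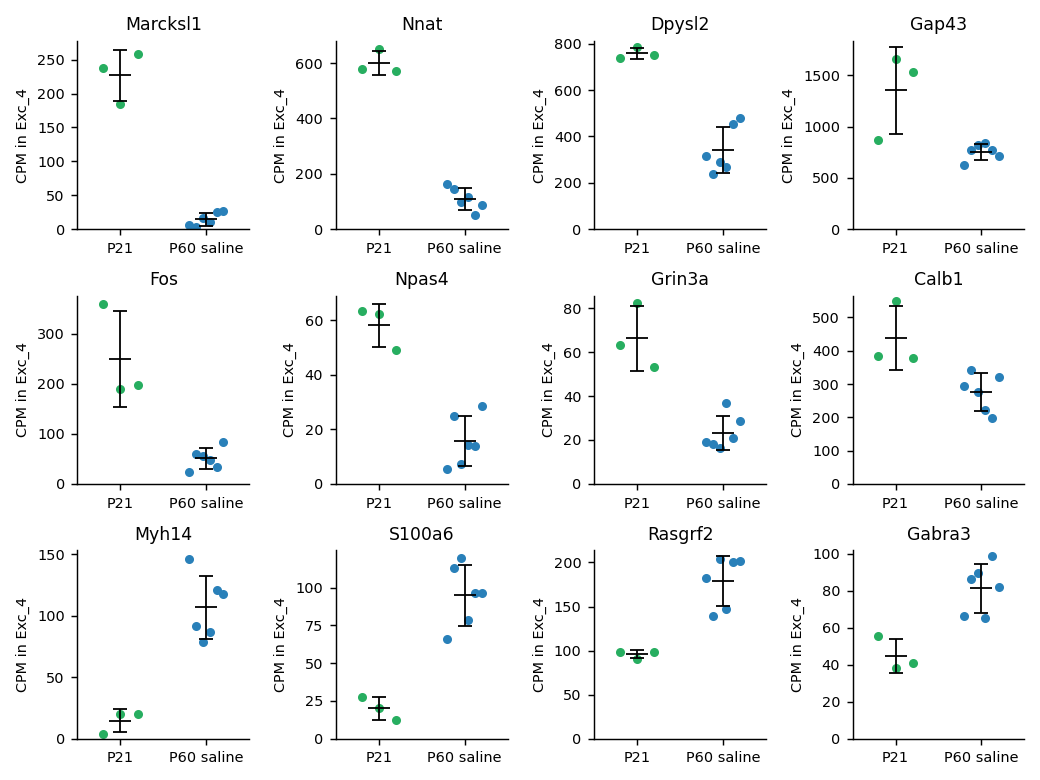
Levels of 12 genes in Exc_4 at P21 (green, 3 libraries) and in the saline P60 libraries (blue, 6), in CPM on linear axes. Points are libraries and black marks are means with SD. Immature neuron genes (Marcksl1, Nnat, Dpysl2, Gap43), activity-regulated genes (Fos, Npas4), Grin3a and Calb1 are lower at P60, and Myh14, S100a6, Rasgrf2 and Gabra3 are higher.

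A minority of the activity-regulated genes fell. These are transcribed within minutes of synaptic activity, and tissue dissociation can also induce them. Of 13 tested, 5 fell and none rose (4.72% and 2.91% of all genes tested), with a median log2 change of -1.03. Fos, a subunit of the AP-1 transcription factor, was at 360.2, 191 and 199 CPM at P21 and at 24.8 to 83.7 (median 52.0) at P60, a log2 change of -2.24 ± 0.29 (adjusted p = 2.87e-04). Npas4, a neuron-specific activity-dependent transcription factor, was at 63.3, 62.3 and 49.2 CPM and fell to 5.52 to 28.5 (median 14.1), 3.56-fold. Dusp6, a phosphatase of ERK, fell 2.83-fold and the transcription factor Egr1 fell 2.3-fold.

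Part of this change moved with the 6 cells of other classes. Without them the mean of Fos over the P21 libraries was 171 CPM and its log2 change was -1.74, still called, as was Egr1 (-0.84, adjusted p = 0.0258). Btg2, an antiproliferative gene, was called at -1.03 with all cells but was at -0.43 (adjusted p = 0.247) without them. Npas4 (-1.88) and Dusp6 (-1.47) kept their calls. The part of dissociation in these levels was not tested.

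The promoters of the genes that fell are shown because a CRE half-site is a familiar element of activity-regulated promoters. RefSeq gave a promoter, from 250 bases before to 50 after the start site, for 4 of the 5 genes (GRCm38.p6). TGACG, on either strand, was in 3 of the 4 (Fos, Npas4 and Btg2, but not Dusp6), and in 20.8% of 32851 promoters. The full site TGACGTCA, which contains TGACG, was in Btg2 alone of the 4 and in 1.79% of all promoters. Btg2 counts in both, although its fall was not called without the cells of other classes. In the sequences of the 2 with the largest falls, Fos at chr12:85473640-85473939 (plus strand) and Npas4 at chr19:4989922-4990221 (minus strand), capitals mark the half-site. A match is a description of the letters and not a bound site.
Fos: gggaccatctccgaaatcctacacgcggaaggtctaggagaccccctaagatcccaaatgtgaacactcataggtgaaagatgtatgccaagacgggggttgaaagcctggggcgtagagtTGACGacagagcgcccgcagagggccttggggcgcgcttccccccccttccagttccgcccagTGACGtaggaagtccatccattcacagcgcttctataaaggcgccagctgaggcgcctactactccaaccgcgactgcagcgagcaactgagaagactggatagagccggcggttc
Npas4: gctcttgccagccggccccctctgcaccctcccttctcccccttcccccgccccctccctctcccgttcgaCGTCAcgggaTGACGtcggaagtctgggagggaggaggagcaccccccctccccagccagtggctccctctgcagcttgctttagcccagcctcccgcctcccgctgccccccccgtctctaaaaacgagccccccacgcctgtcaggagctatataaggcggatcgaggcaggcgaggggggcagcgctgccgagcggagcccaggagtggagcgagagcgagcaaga

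Neuropeptide genes fell in part. Of 11 tested genes on a list of neuropeptides and growth factors, 4 fell and none rose, against 4.72% lower and 2.91% higher over all genes tested. Penk, the precursor of enkephalins, was at 43.5, 26.1 and 24.6 CPM at P21 and at 0 to 3.67 (median 0.405) at P60, a log2 change of -4.37 ± 0.63 (adjusted p = 2.49e-05). Pdyn, the precursor of dynorphins, was at 27.7, 52.2 and 61.5 CPM and fell 2.74-fold to 13.3 to 26.2. Scg2 (secretogranin) fell 1.68-fold and Fgf13, which is not a neuropeptide, 1.82-fold. The library values of Penk and Pdyn did not overlap between the ages.

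Microglial genes were also among the largest falls. The complement genes C1qa, C1qb and C1qc were called with all cells, at 103, 20.1 and 24.6 CPM for C1qa in P21 replicates 1 to 3 and 1.83 to 10.7 at P60. Without the 6 cells of other classes they averaged 6.26, 11.1 and 5.55 CPM at P21, too low to be tested. The whole list of 6 microglial markers summed to 98.4 to 325 CPM at P21 and 14.7 to 41.0 in the saline libraries, against 40055 in microglia. Sparc, a matrix-binding glycoprotein, went from 139, 72.3 and 32.8 CPM at P21 to 0 to 8.91 at P60, and its P21 mean was 81.2 CPM with and 16.0 CPM without those cells. The 6 endothelial markers summed to 2022 CPM in Exc_4 of P21 replicate 1 and to 707 and 619 in replicates 2 and 3, against 477 to 800.0 in the saline libraries. That library was also the highest of the P21 libraries for the 10 oligodendrocyte markers (325 against 44.2 and 53.3 CPM) and the 8 astrocyte markers (768 against 470.1 and 478), and the part of these markers in the falls was not tested. Tmem93, a subunit of the complex that inserts proteins into the endoplasmic reticulum membrane, and Tmem42 fell 5.74- and 5.52-fold and kept their calls without them.

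The calls among receptor and channel genes are set against 7.63% of all genes tested. Of 10 tested subunits of AMPA, kainate and NMDA receptors only Grin3a was called, an NMDA receptor subunit of early postnatal life. It was at 63.3, 82.4 and 53.3 CPM at P21 and at 16.5 to 36.7 (median 20.2) at P60, 2.79-fold lower (adjusted p = 2.47e-04). Of 11 GABA-A subunits only Gabra3 was called, from 55.4, 38.2 and 41.0 CPM to 65.6 to 98.8, 1.91-fold higher. Of 22 potassium channel genes only Kcnv1, a silent modulatory subunit, was called (1.71-fold higher), and without P21 replicate 1 there were 5, all rises. None of 17 sodium, calcium and HCN channel genes, 4 metabotropic glutamate receptors and 6 monoamine, peptide and cannabinoid receptors was called.

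The next counts are set against the same 7.63%. Among synaptic genes, 1 of 23 of vesicle release (Syt13, 2.21-fold lower) and 2 of 26 of adhesion and scaffold (Nlgn3, 1.84-fold, and Homer2, 1.87-fold, both lower) were called. Nlgn3 shares exons with Med12 on the same strand. In axon guidance 3 of 24 were called, with Unc5a and Rtn4rl1 higher and Efnb3 lower, and in cadherins 1 of 18, Cdh7, higher. Syt13, a synaptotagmin, was at 234, 187 and 168 CPM at P21 and 77.1 to 116 at P60, with no overlap.

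Among the upper-layer genes 2 of 13 were called, in opposite directions, against 7.63% of all genes tested. Calb1 was at 384, 548 and 379 CPM at P21 and at 197 to 343 (median 286) at P60, 1.61-fold lower (adjusted p = 0.0103). Rasgrf2 was at 98.9, 90.4 and 98.4 CPM and rose 1.87-fold to 140 to 204 (adjusted p = 7.07e-04). Cux2 was at 79.2, 52.2 and 96.4 CPM at P21 and at 71.6 to 118 at P60 and was not called (log2 change 0.23 ± 0.21, adjusted p = 0.564). Of the genes that lead Exc_4, Aldh1a3 was at 79.2, 64.3 and 55.4 CPM at P21 and 19.6 to 49.5 at P60, 1.93-fold lower. Capn3 was 1.96-fold lower, Plk5 2.35-fold and Evc2 1.72-fold higher, and Otof and Ntf3 were not called.

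Of 35 tested chromatin regulators 2 rose, 4 fell and 29 were not called, against 7.63% called over all genes tested. Dnmt3a, a DNA methyltransferase, was at 67.3, 90.4 and 117 CPM at P21 and at 23.9 to 48.6 (median 36.5) at P60, 2.46-fold lower (adjusted p = 1.99e-04). Yeats4, which reads histone acylation, fell 2.75-fold, the ubiquitin-conjugating enzyme Ube2d3 fell 2.0-fold and the demethylating oxygenase Tet3 1.75-fold. Prmt1, an arginine methyltransferase, rose 1.78-fold and the histone methyltransferase Mll1 rose 1.55-fold. Of 11 tested genes that the study itself names for adolescence, Hspa1a and Prmt1 rose and Marcksl1, Yeats4, Dnmt3a and Ube2d3 fell. That list was picked on these samples and is not independent evidence.

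In 7.63% of all genes tested the age change was called. In calcium binding and signalling 3 of 33 rose (Camkk1, Hpca and Ncald) and 4 fell (Hpcal1, Nrgn, Camk1 and Calb1). In oxidative phosphorylation 2 of 84 rose (Uqcrc1 and Ndufv1) and 4 fell (Cox5a, Cyc1, Ndufab1 and Atp5d), among them Cox5a, at 966, 488 and 447 CPM at P21 and at 82.6 to 242 at P60. Over the 84 the median log2 change was 0.12, against 0.0054 over all genes, and 58 had a positive change. In heat shock proteins 2 of 22 rose (Hspa1a, 3.47-fold, and Stip1) and 1 fell (Fkbp4). In cholesterol synthesis 1 of 15 rose (Fdps) and 1 fell (Sqle). Of the markers of other cells, no astrocyte (5 tested), oligodendrocyte lineage (3), endothelial (2) or striatal (2) gene was called.

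The next question was whether age changed Exc_4 differently from the other excitatory clusters. For each library the Exc_4 counts and the counts of all other excitatory clusters were fitted together, and the difference between their age changes was tested for 11830 genes. It called 103 genes (0.871%), 52 with a higher change in Exc_4 (0.44%) and 51 with a lower one (0.431%). The test in Exc_4 alone covered 7015 genes, so part of the 11830 entered only through the other clusters. How many of the calls are such genes was not counted. All counts of calls from this test are therefore given as a description, with nothing drawn from them. Without P21 replicate 1 there were 92 calls, without replicate 2 there were 44 and without replicate 3 there were 51. Against the 3 closest clusters alone, Exc_3, Exc_5 and Exc_9, there were 33.

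Penk had the largest difference. It fell in Exc_4 from 31.4 ± 10.5 to 1.18 ± 1.59 CPM (SD, n = 3 and 6) and was at 41.0 ± 6.43 and 30.9 ± 17.1 CPM at the same ages in the other clusters. The log2 difference was -4.04 ± 0.54 (SE, adjusted p = 1.87e-09). Inhba, a subunit of activin that neuronal activity induces, was at 35.6, 20.1 and 16.4 CPM in Exc_4 at P21 and at 2.76 to 12.8 at P60, while in the other clusters it averaged 14.9 and 26.5 CPM (difference -3.04 ± 0.45). Bok was at 35.6, 26.1 and 6.15 CPM in Exc_4 at P21 and at 0 to 12.5 at P60, against 56.6 and 100.4 CPM on average elsewhere (difference -2.64 ± 0.44). The Exc_4 libraries overlapped between ages for Bok and not for Penk or Inhba. Inhba and Bok did not pass the filter on low counts in Exc_4 alone, and entered this test through the other clusters, where they were higher at P60, so their age change within Exc_4 was not tested and their differences are given as values.

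Efhd2, a calcium-binding protein, rose 3.48-fold in Exc_4. It was at 11.9, 14.1 and 14.4 CPM in Exc_4 at P21 and at 38.3 to 60.7 at P60, and averaged 147 and 125 CPM in the other clusters (difference 2.0 ± 0.3, adjusted p = 2.58e-07). Against the 3 closest clusters the difference was 0.63 with adjusted p = 0.756, since there Efhd2 averaged 32.8 CPM at P21 and 72.2 CPM at P60. Igfbp2 was at 7.92, 12.1 and 18.5 CPM in Exc_4 at P21 and at 19.7 to 32.1 at P60, and averaged 8.25 and 3.26 CPM elsewhere (difference 2.3 ± 0.41). Abi3bp (difference 2.48) was not called against the closest clusters, which had 5.2 CPM at P21 and 27 at P60.

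Cldn11, Cyr61, H2-D1 and Ccl4 likewise entered this test only through the other clusters, and their values too are a description. For Cldn11, a tight junction gene of myelin, the mean in Exc_4 was 6.01 CPM at P21 and 6.97 at P60, while in the other clusters it averaged 33.1 CPM at P21 and 5.2 at P60. With only cells classed as excitatory on both sides that P21 mean was 15.3 CPM and Cldn11 was not called (adjusted p = 0.26). Cyr61 (0.0863), H2-D1 (0.0915) and Ccl4 (0.751) also lost their calls by those adjusted p-values, while Penk kept its call. In all, 87 genes were called on those cells, 74 of them among the 103, again in a check chosen after the data were seen. Cryab, a small heat shock protein, differed by 2.14 (adjusted p = 0.0334) and kept its call in only 3 of 9 fits that left out 1 library.

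**Figure D4:**
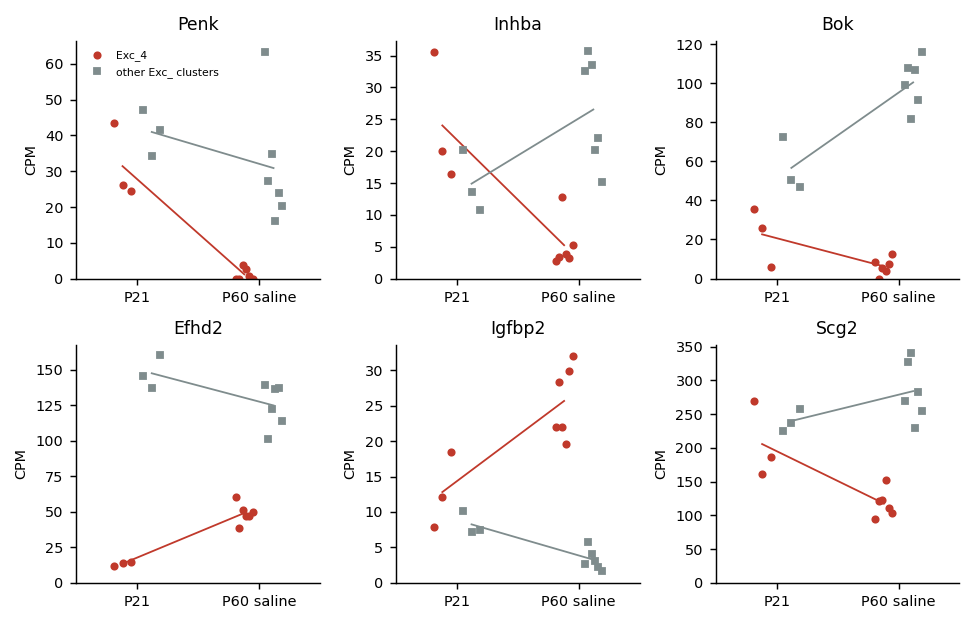
Levels of 6 genes in Exc_4 (red circles) and in all other excitatory clusters together (grey squares) at P21 (3 libraries) and in saline P60 libraries (6), in CPM on linear axes. Points are libraries and lines join the means. Penk is lower at P60 in Exc_4 (from 31.4 to 1.18), Inhba and Bok have lower means there at P60 (with overlapping libraries for Bok), Efhd2 and Igfbp2 are higher in it, and Scg2 is lower at P60 in it while its mean in the other clusters is higher at P60 (239.7 and 284).

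Among members of the lists, the age change was lower in Exc_4 than in the other clusters for Npas4 (difference -1.16, adjusted p = 0.00433), the neurotrophin Bdnf (-1.02, adjusted p = 0.00908), the vesicle protein gene Scg2 (-0.98, adjusted p = 1.28e-05) and Marcksl1 (-1.07, adjusted p = 0.015). Bdnf was at 95, 44.2 and 32.8 CPM in Exc_4 at P21 and 19.3 to 39.2 at P60, against means of 151 and 167 CPM elsewhere. Its Exc_4 libraries overlapped between ages, and it was not called within Exc_4 alone (adjusted p = 0.0566). Of 20 tested neuropeptide and growth factor genes 1 had a higher change (Nptx1) and 3 a lower one. The counts were 0 and 3 of 25 activity-regulated genes and 0 and 2 of 21 axon growth genes. Over all genes tested the shares were 0.44% higher and 0.431% lower. Members of other lists had higher changes, among them Camk4, Hpcal4, Flrt2, Plxna2, Pcdh19 and Tbr1. Of 15 upper-layer genes Pvrl3 and Rasgrf2 had higher changes in Exc_4, against 0.44% of all genes tested. Against the 3 closest clusters Bdnf and Scg2 kept an adjusted p below the threshold (0.0315 and 0.0331), and Npas4 did not (0.804).

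To ask whether cocaine changed Exc_4, the 12 P60 libraries were fitted together and cocaine was compared with saline at each time point over 7672 genes. At maintenance no gene was called (0%), and at 48 h of withdrawal none was called (0%). At an unadjusted p below 0.05 edgeR gave 434 and 304 genes, and DESeq2 also called 0 at both times. The genes of the lists in these 2 comparisons, with 2 libraries a group, therefore showed no change that the test could call. Calb1 was at 267 and 359.8 CPM with cocaine against 295 and 343 with saline at maintenance, and at 236 and 322 against 277 and 223 at 48 h, and the groups overlapped at both times.

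At 15 days of withdrawal 112 genes were called (1.46%), 106 higher with cocaine (1.38%) and 6 lower (0.0782%). The count depended on single libraries. Without saline 15-day replicate 1 only 4 genes were called, without saline 15-day replicate 2 there were 192, without cocaine 15-day replicate 1 there were 72 and without cocaine 15-day replicate 2 there were 25. In those fits 1 arm had a lone library, which was assumed to vary like the other groups. DESeq2 called 15. The 2 saline libraries of this time were also compared with each other in the called genes, whose choice used both of them. Of the 106 rises, saline replicate 2 was above replicate 1 in 101 (95.3%, against 49.5% of all genes tested) and by over 1.5-fold in 66 (62.3%, against 9.12%).

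Calb1 was among the rises, at 489 and 594 CPM in the cocaine libraries against 197 and 322 with saline, 1.13 ± 0.19 on the log2 scale (SE, adjusted p = 4.01e-04). Without saline replicate 1 the change was 0.78 with an adjusted p of 0.253. Tmem93 was at 148 and 163 CPM against 24.3 and 78.4 (log2 change 1.85, adjusted p = 8.79e-05, and 1.02 with adjusted p = 0.253 without saline replicate 1). Cyc1, cytochrome c1 of the respiratory chain, was at 238 and 255 CPM against 75.3 and 146, and Nrgn (neurogranin, which binds calmodulin at synapses) was at 1363 and 872 against 461 and 729. In each of these 4 genes the saline libraries lay apart from each other and replicate 2 was nearer to the cocaine libraries. Cux2 was at 68.1 and 94.2 CPM against 81.8 and 118 and was not called.

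The largest rises by the rule were Ap4s1 (2.25 on the log2 scale), Rspo3, which encodes an enhancer of Wnt signalling (2.04), Fbxl15 (2.01), 2900079G21Rik (1.87) and Tmem93. Rspo3 was at 21.4 and 28.0 CPM with cocaine and at 5.67 and 7.13 with saline, and at 48 h it was lower with cocaine (6.21 and 4.03 CPM) than with saline (9.17 and 13.1 CPM). At maintenance it was at 8.8 and 11.5 CPM with cocaine and 2.76 and 1.67 with saline. Ap4s1 was at 21.4 and 26.1 CPM against 4.05 and 7.13, but a saline maintenance library reached 27.6 CPM. Other called members of the lists were Ppp1r1b (DARPP-32), Syt13, Yeats4, the calcium genes Camk1 and Hpcal1, and Uqcrfs1 of the respiratory chain. Ppp1r1b is on the list of striatal neuron markers. That list summed to 114.9 and 90.5 CPM with cocaine and to 68.0 and 87.3 with saline in Exc_4 at 15 days. Of 34 tested calcium genes 4 were called, of 85 oxidative phosphorylation genes 2, and of 39 chromatin genes 1, against 1.46% of all genes tested.

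The 6 falls included genes best known from astrocytes. Aldoc, an aldolase of brain, was at 33.1 and 28.0 CPM with cocaine against 75.3 and 99.8 with saline, a log2 change of -1.49 (adjusted p = 4.56e-04), and without saline replicate 1 the adjusted p was 0.00625, with a highest of 0.104 on leaving out another library. Ndrg2 was at 15.6 and 11.2 CPM against 32.4 and 51.7. Across the same libraries the 8 astrocyte markers summed to 563 and 495 CPM with cocaine and 664 and 736 with saline in Exc_4, and the part of other cells' RNA in these falls was not tested. Ly6c1, an endothelial gene, was at 5.84 and 9.33 CPM against 34.8 and 21.4, while the 6 endothelial markers summed to 816 and 838 CPM with cocaine and 610.4 and 800.0 with saline. Cdk2ap1 and Neurl4 fell by 1.77 and 1.45 on the log2 scale.

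**Figure D5:**
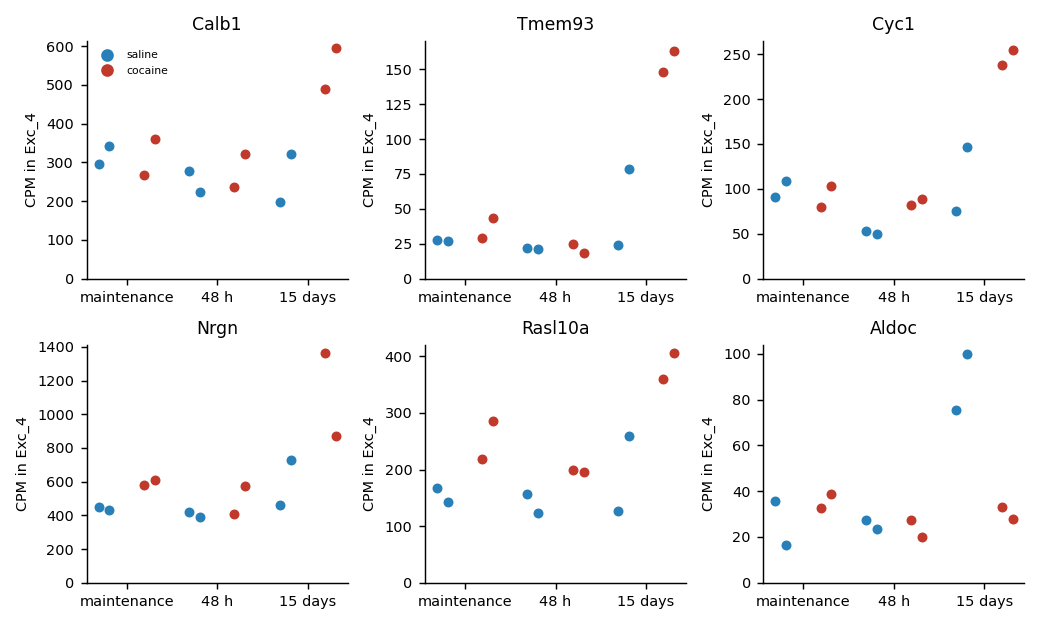
Levels of 6 genes in Exc_4 in the 12 P60 libraries by time point, in CPM on linear axes, with saline in blue and cocaine in red. Each point is a library, 2 per group. At 15 days Calb1, Tmem93, Cyc1, Nrgn and Rasl10a are higher with cocaine, the 2 saline libraries are apart from each other, and Aldoc is lower with cocaine (33.1 and 28.0 against 75.3 and 99.8).

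Among the 106 rises at 15 days, P21 replicate 1 was the highest of the P21 libraries in 78 (73.6%, against 38.7% of all 7672 genes tested). The P21 mean was above the mean of the 6 saline P60 libraries in 101 of the 106 (95.3%, against 49.3% of all genes tested). Calb1, Tmem93, Cyc1, Nrgn, Syt13, Yeats4, Camk1 and Hpcal1 were called both as falls with age and as rises here. The saline 15-day libraries enter both comparisons, so the calls are not independent. Tmem93 was at 257, 183 and 133 CPM at P21, and Cyc1 at 412, 259 and 226. In the other excitatory clusters of the same libraries 107 genes were called at 15 days, all higher. All 106 of the Exc_4 rises were also higher with cocaine there by sign. That share over all genes was not counted and the same libraries enter both, so nothing is drawn from it. The log2 change there was 0.69 for Calb1, 1.68 for Tmem93, 1.32 for Cyc1 and 0.99 for Nrgn. Of these 4 only Nrgn was called there (edgeR, adjusted p = 0.0303). For these 4 genes the direction was the same in Exc_4 and in the other clusters. The difference between Exc_4 and the other clusters in the cocaine change was tested with edgeR only as a mean over the 3 time points, where it called 0 of 11679 genes (0%, with 540 at an unadjusted p below 0.05). The difference at 15 days alone was not tested.

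Over the 3 time points together 2 genes were called (0.0261%), both higher with cocaine. Rasl10a, a small GTPase of the Ras family, was at 219 and 286 CPM against 168 and 143 at maintenance, 199 and 195 against 156 and 123 at 48 h, and 360.2 and 406 against 127 and 258 at 15 days. Its log2 change was 0.75 ± 0.13 (SE, adjusted p = 0.0115), both cocaine libraries were above both saline libraries at each time, and without single libraries the adjusted p reached 0.135. Ptges3, a co-chaperone of HSP90 whose exons overlap Baz2a on the same strand, changed by 0.6 ± 0.12 (adjusted p = 0.0237, up to 0.273 without single libraries).

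The cocaine change differed between time points for 3 genes (0.0391%), Atxn7l3b, Mrps26 and Rtf1. Atxn7l3b was at 173 and 167 CPM against 163 and 181 at maintenance, 139 and 165 against 141 and 159 at 48 h, and 539 and 495 against 156 and 299 at 15 days. Mrps26, a protein of the mitochondrial ribosome, was at 159.7 and 140.0 CPM against 62.3 and 76.6 at 15 days. Rtf1, a transcription elongation factor, was at 179 and 199 against 82.6 and 116. Without saline 15-day replicate 1 none of the 3 was called (adjusted p 0.859, 0.557 and 0.859).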

How the data were processed

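The authors aligned reads with Cell Ranger to mm9 with Ensembl NCBIM37 genes, and deposited raw UMI counts per gene and cell together with a table of retained cells, which holds the cell class, the cluster name and, as a fraction, the deposited mitochondrial share of each cell. Clusters were made with Seurat 2.1.0. Cells that the authors removed as doublets or for high mitochondrial share are not in that table, and no further cell filter or doublet caller was applied. The deposited counts of Exc_4 cells were summed per library over 25989 genes, without 13 mitochondrial and 143 ribosomal protein genes, and CPM was computed from these sums. Library and cluster sums with under 10 cells were left out.

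Tests were made with edgeR 4.0.16 (TMM, filterByExpr, quasi-likelihood) in R 4.3.3, checked on simulated data, with DESeq2 1.42.0, other size factors, no filter, other cell sets and left-out libraries as alternatives. Age was tested on the 6 saline P60 and 3 P21 libraries, and cocaine on all 12 P60 libraries with treatment by time point. Differences from other clusters used both sums of each library, with library as a term. Shares were tested by exact permutation over libraries. Libraries are the replicates. The p-values of edgeR rest on a spread estimated over all groups of a fit together. They do not measure the spread within a single group, such as the saline libraries of a time point. Whether the P21 libraries are separate samples is not given, so their spread may be partly technical.

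Genes named were the 12 highest and 6 lowest by ratio for the cluster, up to 10 rises and 10 falls with age (not overlapping, at least 20 CPM), 6 each way for differences, 5 each way for cocaine, and some of the called members of the lists. Other called members of the lists are not named. The members, lists and rules were chosen with earlier results of these data known. One gene that met the rule for differences is not reported here.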

Additional observations from a re-analysis of the deposited data

Results flagged for a closer look

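Among the 6 saline P60 libraries, 3 of the genes named for age had a library far from the other 5 by Dixon's criterion, and each time it was saline 15-day replicate 2. Phf1 was at 44.5 CPM there, Sparc at 8.91 CPM and Tmem93 at 78.4 CPM. Of 23 groups of values examined, chance gives about 1 in 20.

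For 5 genes the age change in Exc_4 differed from that of the other excitatory clusters by the test of the difference (log2, Exc_4 minus the others). The difference was 2.48 for Abi3bp, 2.3 for Igfbp2, 2.14 for Cryab, 2.0 for Efhd2 and -4.04 for Penk. Cryab kept its call in 3 of 9 fits that left out 1 library and Abi3bp in 6. For 6 other genes that passed the filter on low counts only through the other clusters, the difference is given as a description, with nothing drawn from its test. It was 2.64 for Cldn11, -3.04 for Inhba, -2.86 for Cyr61, -2.64 for Bok, -2.32 for H2-D1 and -2.02 for Ccl4. Cldn11, Cyr61, H2-D1 and Ccl4 were not called with only cells classed as excitatory, and Cyr61 and Ccl4 each kept their call in 4 of 9 fits that left out 1 library.

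The cocaine change differed between time points in the test of treatment by time point for Atxn7l3b (adjusted p = 0.0245), Mrps26 (adjusted p = 0.0307) and Rtf1 (adjusted p = 0.0363) in edgeR's fit.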

How the results depend on the processing

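Calls with age numbered 535, against 58 with the 15-day saline libraries as the only adults, 281 with equal numbers of cells per library and 276 to 675 on leaving out 1 library. Of 354 values of the 20 named genes under alternatives, 344 kept their call, 10 were not called and 0 changed sign, and a further 26 had no value because the gene failed the filter on low counts there. Calls were lost in 31 of 156 values for the differences, 35 of 150 at 15 days and 10 of 30 over the time points. The 103 differences from other clusters became 33 against the 3 most similar clusters and 44 to 117 without single libraries. At 15 days the 112 calls became 15 with DESeq2 and 4 to 192 without single libraries. Over the time points the 2 calls became 4 with no fold limit, 1 with DESeq2, 14 with no filter on low counts and 0 to 41 without single libraries. The 3 genes of the treatment by time point test became 21 with no filter and 0 to 63 without single libraries. Leaving out single libraries gave 0 to 3 calls at maintenance and 0 to 2 for the difference in cocaine response. The age difference in share was 3.17 to 4.9 points without single libraries (exact permutation p 0.0357 to 0.179), and the cocaine difference was -1.33 to 2.37 points, with the sign turned at -0.347 and -1.33. Of the 12 leading genes 7 stayed with P21 libraries only and 6 by the ratio to the highest other cluster. The causes were not tested. By the sample numbers in their titles, which are not the replicate numbers used above, saline P60 and P21 libraries share only 2 and 3. The deviations of those libraries from the group means correlated at -0.02 and 0.03 over 7015 genes. Pairs with unlike numbers ranged from -0.15 to 0.18, and 2 correlations cannot show whether the numbers pair the libraries. A fit with the number as a replicate block, chosen after the data were seen, called 677 genes, of which 339 were among the 535. Only the libraries numbered 2 and 3 bear on the age change in that fit, so its count is a description. The cocaine and saline groups of a time point share no sample number. The depth of 36 to 152 cells per P60 library limits what can be called among low genes.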
